A study of Mus musculus with 31 samples.

Results

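The mRNAs of the cytosolic ribosomal proteins were examined in the mammary gland of 31 C57BL/6J dams on lactation day 10. The members are the protein-coding genes whose GRCm39 symbol has the form Rpl or Rps plus a number, together with *Rplp0*, *Rplp1*, *Rplp2*, *Rpsa* and *Fau*, with at least 100 counts over all libraries. Of the 55379 genes in the count tables, 86 protein-coding genes had such a symbol and 84 of them were members, 34 of the small and 50 of the large subunit. *Rpl39l* (55 counts) and *Rpl10l* (0 counts) were below the minimum. All 84 members passed the filter on low counts, which left 14362 genes for testing.

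Dams were fed a breeder diet with 4 mg/kg folic acid (FA) or an FA diet with 24 mg/kg from 2 weeks before mating. From embryonic day 13 on they were injected with saline or with fluoxetine at 20 mg/kg/d, an antidepressant that blocks serotonin reuptake. By the labels the breeder diet had 8 dams with saline and 7 with fluoxetine (written breeder diet + saline and so on), and the FA diet had 8 of each. The study's methods give other sizes for both fluoxetine groups, and the labels were followed. Each dam gave 1 poly(A) library from whole gland, so fewer cells of a type and less RNA per cell cannot be told apart. Total counts per dam ranged from 15412542 to 36000439.

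One library stood apart. In dam 3 of FA diet + fluoxetine, the 20 most abundant genes held 39.3% of the counts, against 60.5% to 81.0% in the other 30 dams, and its TMM factor was 3.04 against 0.716 to 1.57. The 5 secretory markers (*Csn2*, *Csn3*, *Csn1s1*, *Wap* and *Lalba*) summed to 42003 CPM there and to between 235254 and 729772 CPM elsewhere. Its 5 adipocyte markers summed to 828 CPM (145 to 370 in the others) and its 4 macrophage markers to 101 CPM (19.3 to 38.1). All 5 secretory markers had counts in all 31 libraries. Lymphocyte and neutrophil markers were near 0 throughout, with sums of 0.393 to 3.37 and 0.237 to 4.68 CPM. The part of these markers in the values of the members was not tested.

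A cytosolic ribosome holds 1 copy of nearly every ribosomal protein, and the genes for these proteins are active in every cell type. Many of their mRNAs begin with a C followed by a run of pyrimidines, the 5′ terminal oligopyrimidine (TOP) motif, through which mTORC1 and LARP1 control their translation. The lactating gland needs ribosomes in large numbers for milk protein synthesis, although its poly(A) RNA is dominated by a few milk protein transcripts. A count table reports mRNA and not translation.

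RefSeq starts of transcription were available for 63 members, and the 30 bases around a start (15 before it and 15 from it on) show the motif where it is present. The windows below are those of *Rps6* and *Fau*, of the P-stalk gene *Rplp2*, of the 3 members with the smallest p for fluoxetine (*Rps13*, *Rps10* and *Rpl38*) and of the member with the smallest p for FA (*Rpl22l1*). Capitals mark a C plus at least 4 pyrimidines that begin at the start or up to 5 bases after it.
Rps6: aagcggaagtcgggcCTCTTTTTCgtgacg
Fau: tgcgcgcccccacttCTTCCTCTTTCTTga
Rplp2: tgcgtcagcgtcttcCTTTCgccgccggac
Rps10: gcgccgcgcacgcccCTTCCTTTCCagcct
Rpl38: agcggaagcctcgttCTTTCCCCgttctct
Rps13: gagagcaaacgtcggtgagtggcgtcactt
Rpl22l1: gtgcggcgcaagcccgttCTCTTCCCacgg

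On GRCm39 these windows lie at chr4:86775590-86775619 (*Rps6*, minus strand), chr19:6107962-6107991 (*Fau*, plus), chr7:141027549-141027578 (*Rplp2*, plus), chr17:27854204-27854233 (*Rps10*, minus), chr11:114559391-114559420 (*Rpl38*, plus), chr7:115933411-115933440 (*Rps13*, minus) and chr3:28859642-28859671 (*Rpl22l1*, plus). Each holds the end of the promoter and the first bases of the 5′ UTR. The tract began exactly at the RefSeq start in 14 of 63 members (22.2%) and in 287 of 9823 other tested protein-coding genes (2.92%). Allowing a shift of up to 5 bases, 30 members (47.6%) and 23.9% of the other genes held it. The letters CGGAAG stood on either strand of the 300-base promoter window in 42 members (66.7%) and in 34.1% of the other genes. These are matches of letters, and a RefSeq start may lie a few bases from the one used in this tissue.

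The 84 members spanned a wide range of levels per length. Per kb of coding length the median was 441 CPM (counts scaled to TMM-normalized library size), with 445 for the small and 392 for the large subunit. *Rpl41*, the shortest ribosomal protein, was highest with 5462 CPM per kb of coding length, followed by the P-stalk gene *Rplp1* with 1266. The acidic stalk protein *Rplp2* and its anchor *Rplp0* had 649 and 570, *Fau*, a ubiquitin-like fusion to a small subunit protein, had 518, *Rpsa* of the small subunit had 455, *Rps6*, the S6 kinase substrate, had 388, and *Rpl3* of the peptidyl transferase region had 183. *Rps4l* (2.27), *Rpl3l* (2.87) and *Rpl7l1* (23.1) were lowest. Per kb of the union of all annotated exons, which the vM39 annotation extends far beyond the main transcript for many members, *Rplp1* (738), *Rpl41* (540), *Rps3a1* (322), *Rpl8* (239) and *Rpl10* (224) were highest and *Rps4l* (1.34), *Rpl3l* (2.07), *Rpl7l1* (4.74), *Rpl21* (11.7) and *Rps15a* (16.0) lowest. The choice of length moved *Rps3a1* from rank 3 to 35, *Rpl8* from 4 to 39 and *Rps15a* from 80 to 60, and the Spearman correlation of both orders over the 84 genes was 0.64.

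**Figure D1:**
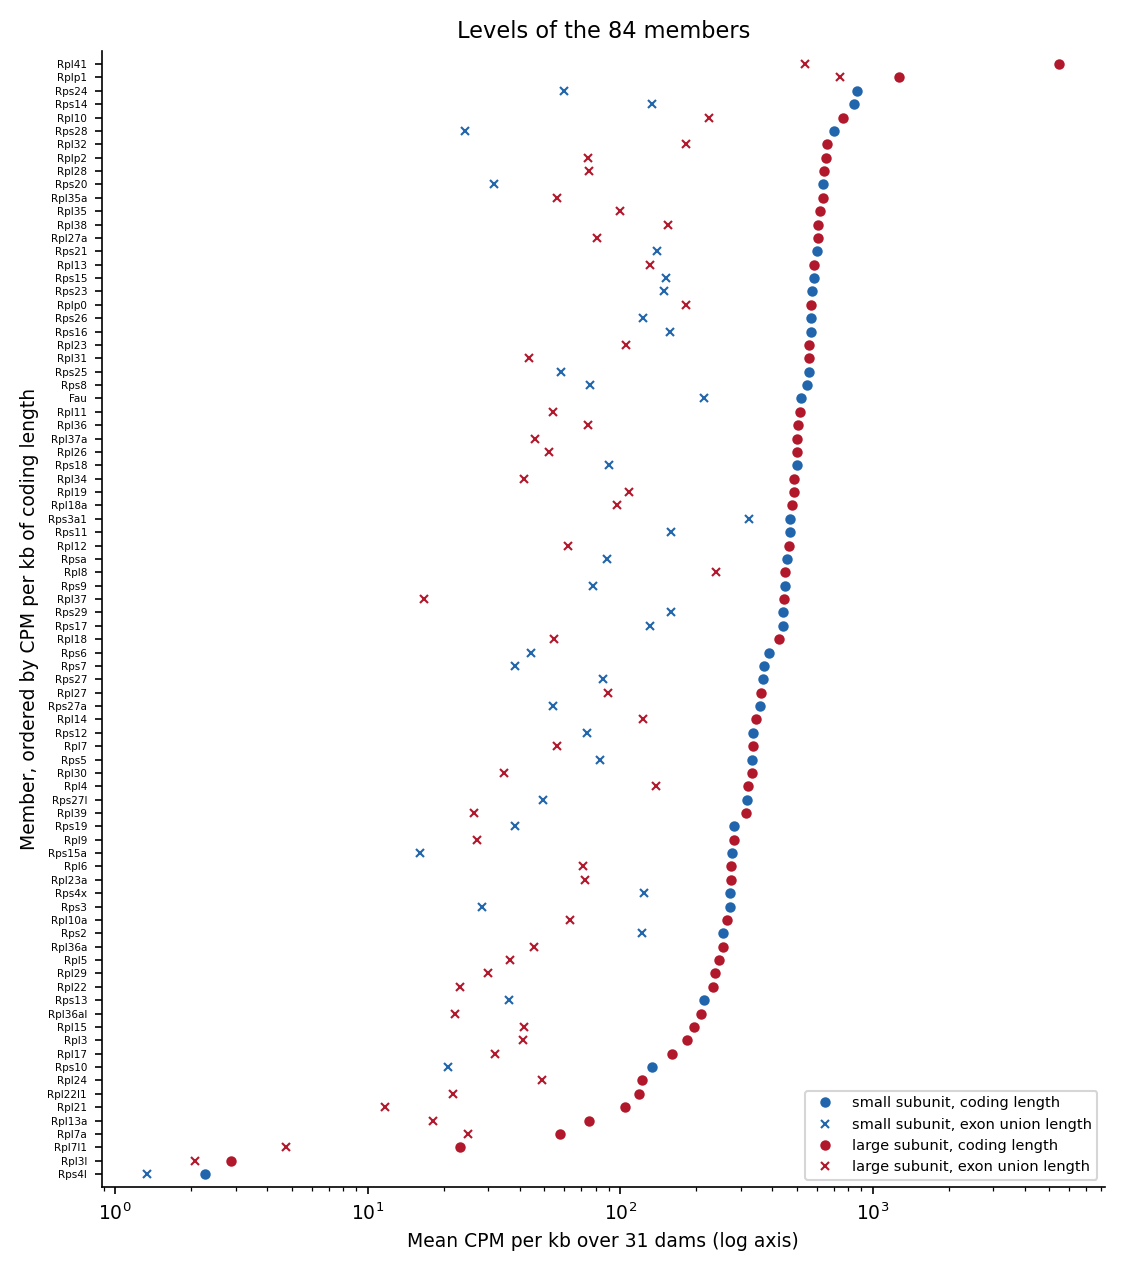
Mean level of each of the 84 members over 31 dams, in CPM per kb on a log axis, with dots per coding length and crosses per exon union length, blue for the small and red for the large subunit. By coding length *Rpl41* stands alone at 5462 CPM per kb, and the paralogs *Rps4l*, *Rpl3l* and *Rpl7l1* lie below all other members on both scales.

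The members took a small share of each library. Their share of all counts was 1.58% ± 0.169 (SD, n = 8) in breeder diet + saline, with a lowest value of 1.27%, a median of 1.60% and a highest of 1.84%. It was 1.85% ± 0.420 (n = 7) in breeder diet + fluoxetine, from 1.54% over a median of 1.79% to 2.75%. FA diet + saline had 1.57% ± 0.228 (n = 8), from 1.36% over 1.53% to 2.09%, and FA diet + fluoxetine 2.02% ± 0.655 (n = 8), from 1.69% over 1.76% to 3.60%. The groups overlapped, and the highest values of 3 groups came from libraries in which milk transcripts took the smallest share. Without its highest dam, FA diet + fluoxetine had 1.80% ± 0.161 (dam 3, n = 7), breeder diet + fluoxetine 1.71% ± 0.160 (dam 13, n = 6) and FA diet + saline 1.497% ± 0.092 (dam 3, n = 7).

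After TMM normalization, which scales out the milk transcripts, the members of the 8 breeder diet + saline dams summed to 15666 ± 2459 CPM (SD), with 11913, 16282 and 19382 CPM as lowest, median and highest. Breeder diet + fluoxetine had 18057 ± 2625 CPM (n = 7; 15291, 17561 and 21927), FA diet + saline 18028 ± 2416 CPM (n = 8; 15346, 16866 and 21600) and FA diet + fluoxetine 17949 ± 3639 CPM (n = 8; 11907, 18909 and 23165). The means of the 3 treated groups lay within 1 SD of the control mean, and all groups overlapped. Dams 12 and 11 of the control group, with 11913 and 12271 CPM, lay below every dam of breeder diet + fluoxetine and FA diet + saline. Dam 3 of FA diet + fluoxetine went from the highest share of counts before normalization to the lowest normalized level of its group. Without it the group mean was 18813 ± 2914 CPM (n = 7), which lay more than 1 SD of the control group above the control mean. No test was made on this sum, since it is a score over chosen genes.

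**Figure D2:**
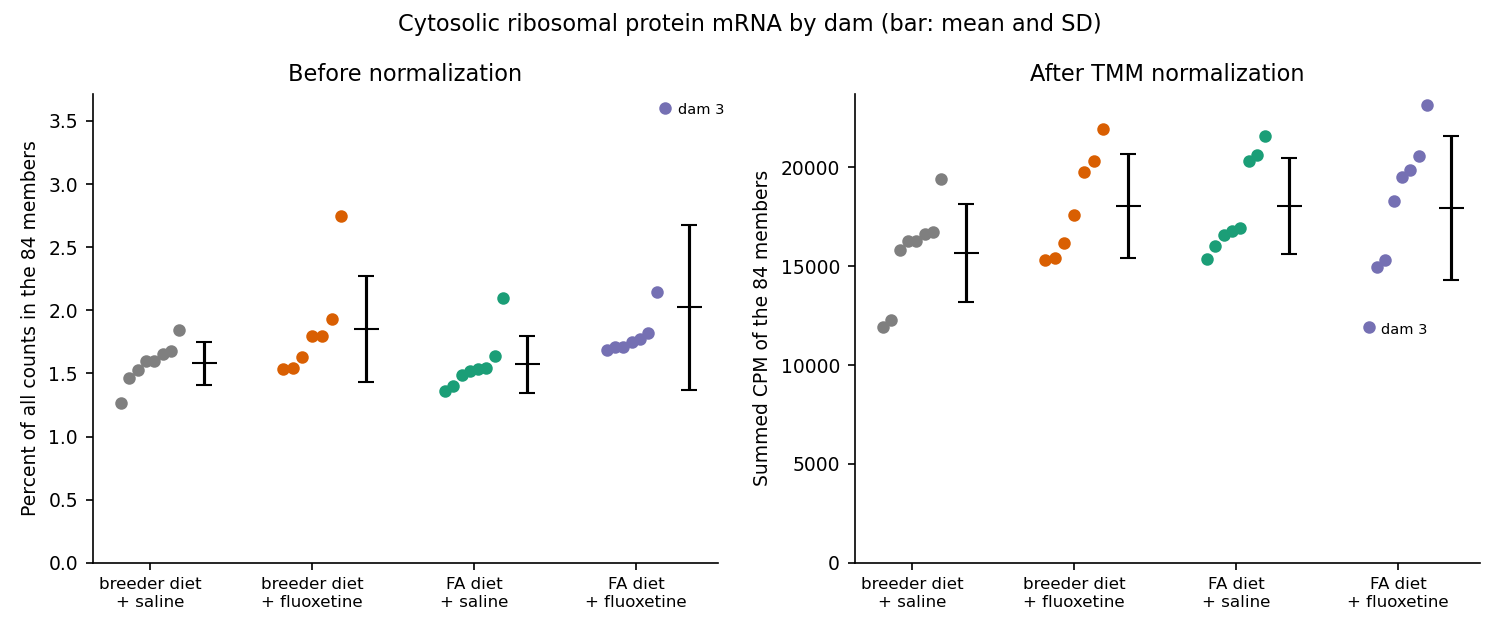
Left, percent of all counts in the 84 members for each dam; right, their summed CPM after TMM normalization, with the 4 groups on the x axis and group mean and SD as black bars. The groups overlap on both scales, and dam 3 of FA diet + fluoxetine is the highest of all on the left (3.60%) and the lowest on the right (11907 CPM).

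The members moved together from dam to dam. After the group means were removed, the median correlation over the 3486 pairs of members was 0.71 over 31 dams, against 0.00 over pairs of all genes tested. These points share libraries and normalization factors. The median SD between dams of the same group was 0.30 on the log2 scale for members and 0.48 for all genes tested, and 78 of 84 members lay below the latter. Neither the correlation nor the SD was compared with that of genes of like abundance. Subtracting each dam's own member median lowered the median SD to 0.17. In dam 3 of FA diet + fluoxetine only 3 members lay above the group mean, in dams 11 and 12 of breeder diet + saline 4 each, and in dam 1 of FA diet + saline 82. A count of members in one direction is therefore not a count of independent observations.

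*Rpl10a* (SD 0.19), *Rpl4* (0.19) and *Rpl7* (0.19), all of the large subunit, varied least between dams. *Rpl3l* (1.59), *Rpl7a* (0.72) and *Rps27a* (0.57) varied most. *Rpl7a* was also the member least like the rest, with a median correlation of -0.30 with the others, followed by *Rpl23a* (0.01), *Rps2* (0.03) and *Rpl3l* (0.08), which were picked after their values were seen. *Rpl7a* CPM ran from 15.3 over a median of 35.7 to 88.7 under saline and from 21.1 over 71.5 to 89.8 under fluoxetine on the breeder diet. On the FA diet it ran from 22.7 over 44.7 to 72.8 and from 16.0 over 40.8 to 73.6, and the groups overlapped. *Rps27a*, a ubiquitin fusion, ran from 58.6 to 213 CPM, from 92.7 to 304, from 96.2 to 247 and from 71.2 to 270 CPM in the same groups, with medians of 146, 175, 181 and 188.

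Both genes have pseudogenes named after them that also received counts. There were 323 pseudogenes named after 65 of the members, with 456050 counts in all, or 3.77% of the 12082371 counts of the members. Pseudogenes under other kinds of symbol were not searched for, so these numbers may be too low. For 13 members they held more than 10% of the member's own counts. The share was 168% for *Rpl17*, 72.0% for *Rps10*, 38.6% for *Rpl7a*, 36.7% for *Rps27a*, 33.9% for *Rps12*, 32.0% for *Rpl21* and 22.1% for *Rpl38*, so reads of these 7 genes may be split with near-identical copies and their counts are uncertain. Adding the pseudogene counts lowered the SD of *Rpl7a* to 0.47, of *Rps27a* to 0.35, of *Rps10* from 0.41 to 0.31 and of *Rpl17* from 0.38 to 0.27. It raised the median correlation of *Rps27a* with the other members from 0.64 to 0.80, while *Rpl7a* stayed negative at -0.10. Exons of other genes overlapped more than 25% of the exon length in 21 members. Among them were *Rpl23a* (79.4%), *Rpl7a* (29.6%), *Rps27a* (40.8%), *Rpl22l1* (36.5%) and *Rps2* (36.9%). The strand option of the counting was not stated.

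**Figure D3:**
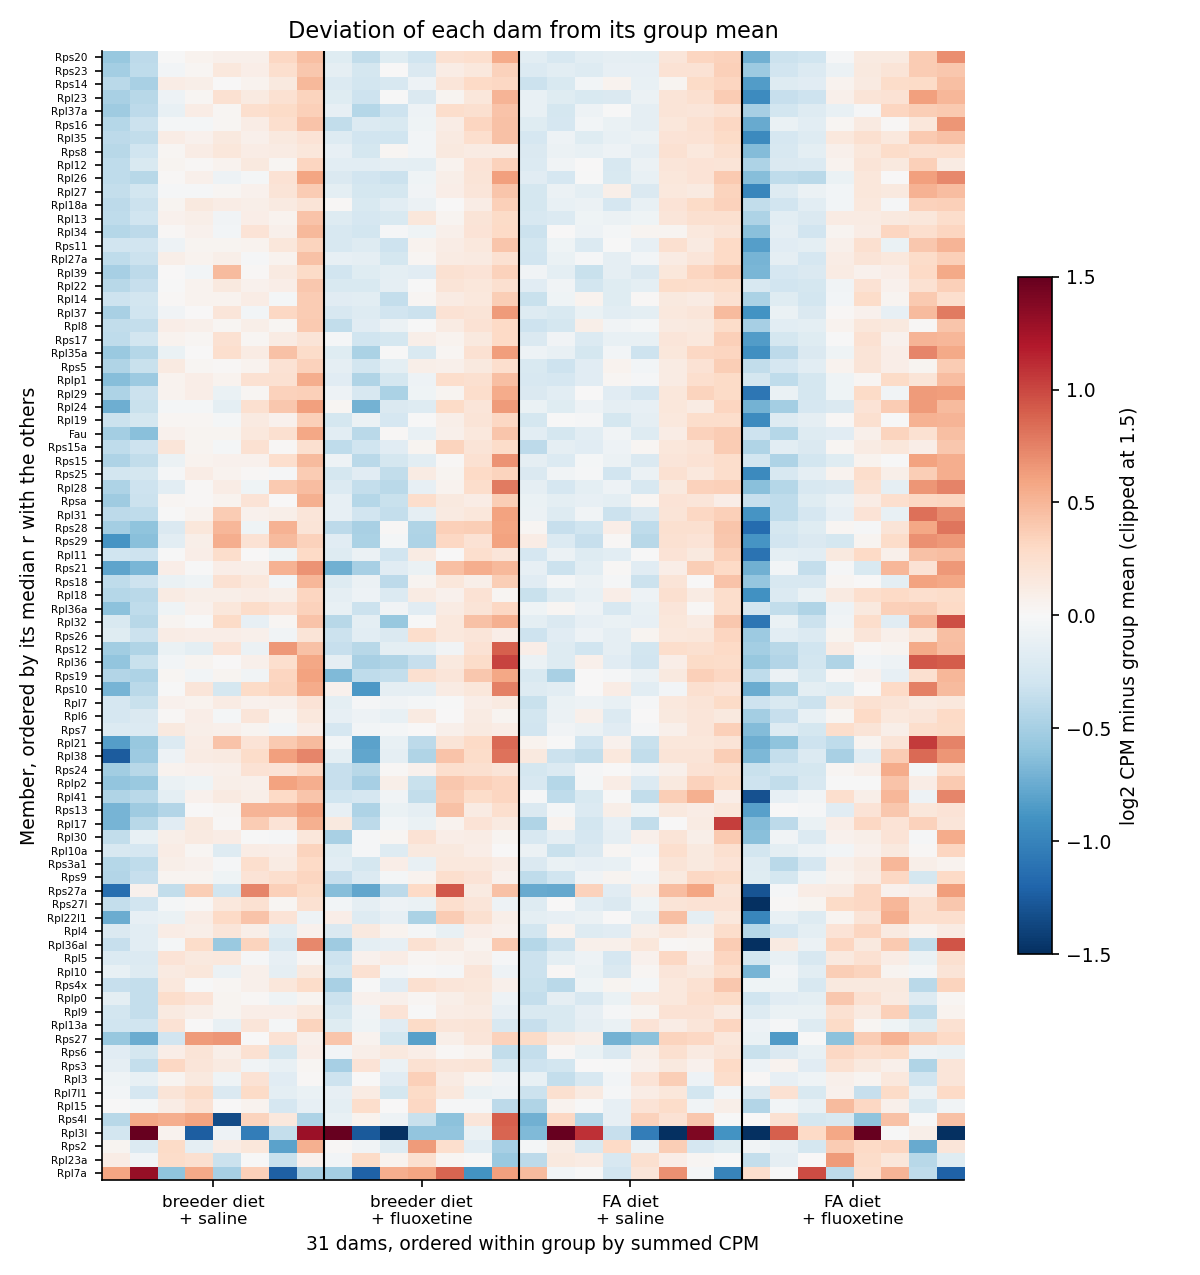
log2 CPM minus the mean of the dam's own group for the 84 members (rows, ordered by median correlation with the other members) in 31 dams (columns, ordered within group by summed CPM). Most rows change color together from column to column, dam 3 at the left edge of FA diet + fluoxetine is blue almost throughout, and *Rpl7a*, *Rpl23a*, *Rps2* and *Rpl3l* at the bottom do not follow the others.

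The first comparison asked whether fluoxetine changed these mRNAs, averaged over both diets. None of the 84 members passed an FDR of 10% in edgeR's quasi-likelihood test, where 3 of 14362 genes did (0.0209%). Omitting 1 dam gave 1 gene (dam 2 of FA diet + saline), 0 (breeder diet + fluoxetine, dam 8), 5 (dam 3 of either saline group), 7 and 11 (dams 10 and 2 of FA diet + fluoxetine), 16 (dam 7 of breeder diet + fluoxetine) and 19 (dam 4 of breeder diet + saline), with no member among them. Of the members, 12 (14.3%) reached an unadjusted p of 0.05, all higher with fluoxetine, against 9.92% of all genes in either direction and 6.94% higher. Their FDR ran from 0.335 to 0.483 and their logFC from 0.24 to 0.48. Leaving out dam 9 of breeder diet + fluoxetine gave 5 such members (5.95%, against 7.03% of all genes in that fit), leaving out dam 6 of the FA diet + fluoxetine dams gave 7 (8.33% against 8.83%), and leaving out dam 3 of that group gave 19 (22.6% against 9.21%). The median logFC over the 84 members was 0.10, and 67 (79.8%) were above 0, against a median of 0.02 and 53.5% over all genes tested. The members’ median was 0.06 when dam 9 of breeder diet + fluoxetine was omitted, and 0.07 when dam 12 of the controls or dam 6 of FA diet + fluoxetine was. With library totals alone 83 of 84 members and 85.0% of all genes were above 0. In a fit with a block on the animal number, the median of the members was -0.004 and 41 of 84 were above 0. All genes had 0.004 and 50.6% there.

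The smallest p-values belonged to *Rps13*, *Rps10* and *Rpl38*. *Rps13*, of the small subunit, ran from 46.8 over a median of 76.4 to 116 CPM on the breeder diet with saline, and with fluoxetine its median was 99.6 and its highest value 144 CPM. With the FA diet it ran from 76.0 over 89.7 to 99.2 CPM under saline and from 62.3 over 117 to 146 CPM under fluoxetine. Medians were higher with the drug on both diets and the groups overlapped, with logFC = 0.40 (SE 0.13, FDR = 0.335). *Rps10* had 52.3 ± 14.4 CPM (SD) under saline and 79.3 ± 25.9 under fluoxetine on the breeder diet, and 62.3 ± 7.40 and 71.3 ± 24.7 CPM on the FA diet, with logFC = 0.40 (SE 0.14, FDR = 0.389). *Rpl38*, known for its part in translating Hox mRNAs, had 106 ± 39.8, 160 ± 60.7, 110 ± 22.1 and 140 ± 57.0 CPM in the same order, with logFC = 0.48 (SE 0.17, FDR = 0.406). Without dam 3 of FA diet + fluoxetine the logFC of *Rps13* was 0.43 with FDR = 0.270.

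The marker members of the list had small differences. In the same order, *Rplp0* had 525.8 ± 69.2, 523 ± 54.0, 585 ± 96.0 and 533 ± 91.5 CPM, with logFC = -0.07 (SE 0.09, FDR = 0.835) for fluoxetine. *Rps6* had 287 ± 38.7, 279 ± 30.6, 312 ± 43.6 and 280 ± 48.6 CPM, with logFC = -0.10 (SE 0.09, FDR = 0.750). *Rpl3* had 206 ± 18.9, 214 ± 32.3, 241 ± 42.5 and 223 ± 23.7 CPM, with logFC = -0.03 (SE 0.09, FDR = 0.948). The 3 logFC values were positive when library totals alone were used for scaling (0.16, 0.14 and 0.25), a scaling under which the median of all genes was 0.26 in place of 0.02. The other named members had wider spreads. *Rplp1* had 366 ± 94.2, 475 ± 107, 425 ± 62.3 and 472 ± 99.3 CPM, *Rplp2* 190 ± 57.2, 252 ± 64.9, 213 ± 39.2 and 245 ± 52.2 CPM, *Rpsa* 346 ± 77.1, 443 ± 89.6, 397 ± 41.7 and 430 ± 84.3 CPM, and *Fau* 185 ± 47.7, 218 ± 39.6, 203 ± 36.9 and 222 ± 49.5 CPM. In each of these 4 genes breeder diet + saline had the lowest mean and the ranges of all groups overlapped.

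Members with short coding sequences had larger values for fluoxetine than long ones. The median logFC was 0.12 in the 28 shortest members (138 to 405 bases), 0.12 in the middle 28 and 0.01 in the 28 longest (582 to 1257 bases), and the median SD between dams was 0.35, 0.31 and 0.23. Across the 84 members the Spearman correlation of logFC with coding length was -0.51, and across 12750 coding genes tested it was 0.06. For FA these correlations were 0.25 and -0.17. The genes share dams and libraries, and RNA integrity was not analysed here. In the 14 members with a TOP tract at the start the median logFC for fluoxetine was 0.19, with 12 above 0, and in the 49 without one it was 0.08, with 38 above 0. The groups ranged from -0.17 to 0.48 and from -0.13 to 0.40 and overlapped.

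The second comparison asked for the effect of FA, averaged over both injections. None of the 84 members passed an FDR of 10% and neither did any other gene (0.0%), also in the likelihood ratio test, DESeq2 and limma. One member, *Rpl22l1*, had an unadjusted p of 0.05 or below (1.19%), against 5.08% of all genes. Without dam 3 of FA diet + fluoxetine the count was 10 (11.9%, against 6.99% of all genes in that fit). In limma with all dams it was 16, and the share of all genes in that fit is not given. The median logFC of the members was 0.10 with 76 of 84 above 0, against 0.02 and 53.9% over all genes. *Rpl22l1*, the paralog of *Rpl22*, ran from 20.6 over a median of 34.9 to 46.2 CPM in breeder diet + saline and from 43.3 over 44.5 to 65.3 CPM in FA diet + saline. It ran from 30.4 over 44.8 to 54.8 CPM in breeder diet + fluoxetine and from 22.5 over 48.2 to 64.7 CPM in FA diet + fluoxetine. The control group had the lowest median and overlapped with the others, with logFC = 0.28 (SE 0.12, FDR = 0.933) for FA. Next by p were *Rps2*, near the mRNA entry site, with logFC = 0.25 (SE 0.13) and *Rpl10a* with logFC = 0.16 (SE 0.08), both with FDR = 0.933.

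The third comparison was the interaction, the fluoxetine effect on the FA diet minus that on the breeder diet. None of the 84 members had an FDR of 10% or below, as no gene did (0.0%), and none had an unadjusted p of 0.05 or below, against 3.84% of all genes. The median value over members was -0.24, with 2 of 84 above 0 (*Rps2* and *Rps4l*), against a median of 0.03 and 54.0% over all genes tested. Values of marker lists stand beside this pattern. Of 5 erythroid markers (hemoglobin genes and *Alas2*), 5 were above 0 for fluoxetine (median 0.32), 5 for FA (0.33) and 0 for the interaction (-1.08). They summed to 65.1 ± 17.4 CPM in the control group, and to 116 ± 83.6, 109 ± 46.4 and 103 ± 75.9 CPM with fluoxetine, FA and both. Of the 5 secretory markers, 0 were above 0 for fluoxetine (-0.20), 5 for FA (0.09) and 0 for the interaction (-0.24). For the interaction 1 of 6 skeletal muscle markers (median -1.82) and 1 of 5 myoepithelial markers (-0.05) were above 0. So were 4 of 5 adipocyte markers (0.24) and 3 of 4 macrophage markers (0.14). Of 2 tested lymphocyte (0.70) and 2 tested neutrophil markers (-0.41), 1 each was above 0. No tested marker of these lists passed an FDR of 10%, and the part of the markers in the values of the members was not tested. Omitting dam 9 of breeder diet + fluoxetine gave a member median of -0.16, and omitting dam 3 of the FA diet + fluoxetine dams gave -0.18. Without dam 12 of breeder diet + saline it was -0.17, and without dam 11 of that group -0.19. The most negative median, -0.29, came without dam 6 of FA diet + fluoxetine. The smallest p-values belonged to *Rps26* (-0.32, SE 0.19), *Rpl6* (-0.28, SE 0.18) and *Rpl7l1* (-0.28, SE 0.18), each with FDR = 0.977. With library totals alone the median over members was 0.10 (73 of 84 above 0) and that of all genes 0.47 (85.9% above 0). Relative to all genes the members were at -0.37 on this scale and at -0.27 after TMM. The single effects behind this contrast share dams. The median logFC of the members was 0.22 for fluoxetine on the breeder diet (78 of 84 above 0) and -0.02 on the FA diet (37 of 84). It was 0.21 for FA under saline (84 of 84) and -0.01 under fluoxetine (34 of 84). The medians of all genes for these 4 effects were between 0.00 and 0.04. In the same order, 50.5%, 54.5%, 50.4% and 54.3% of all genes were above 0. Breeder diet + saline had the lowest mean log2 CPM of the 4 groups for 72 members, FA diet + fluoxetine for 8, breeder diet + fluoxetine for 4 and FA diet + saline for 0. The same order was not counted over all genes, and the members are not independent observations.

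**Figure D4:**
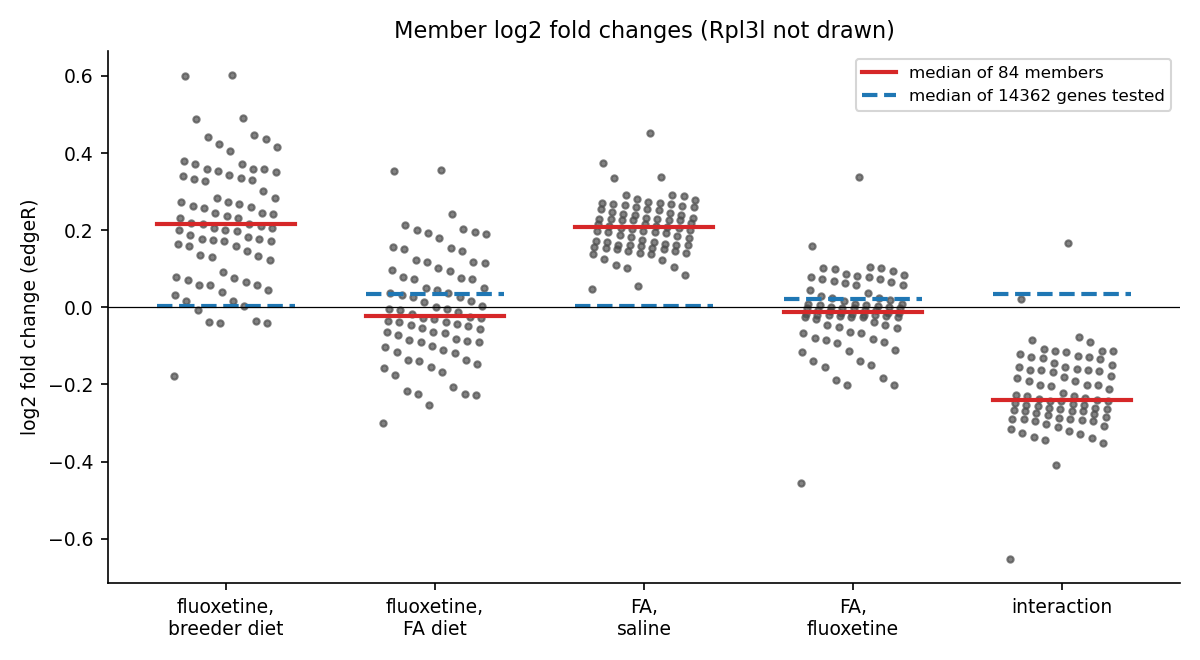
log2 fold change from edgeR of 83 members (dots; *Rpl3l* is not drawn) for fluoxetine on each diet, FA under each injection and the interaction, with the median over 84 members in red and that over 14362 genes as a dashed blue line. Both effects measured against breeder diet + saline have member medians near 0.2, both others lie near 0, and the interaction median is -0.24 with no member past an FDR of 10%.

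Small and large subunit members overlapped in their values. Under fluoxetine the median logFC was 0.12 over 34 small and 0.07 over 50 large subunit members, and under FA it was 0.10 for both. The ratio of summed large to summed small subunit CPM was 1.49 ± 0.046 (SD, n = 8) under saline and 1.46 ± 0.053 (n = 7) under fluoxetine on the breeder diet, and 1.49 ± 0.024 (n = 8) and 1.43 ± 0.050 (n = 8) on the FA diet, with overlapping ranges. It was lowest in dam 3 of FA diet + fluoxetine (1.33).

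In 6 pairs of paralogs the second gene was the less abundant on average, compared as CPM per kb of exon union length. *Rpl22l1* held 48.1% ± 4.89 of its pair with *Rpl22* (SD over 31 dams) and was below it in 20 of 31 dams, while per kb of coding length its share was 33.6% ± 4.28 and it was below in all 31. On the breeder diet its share was 45.5% ± 4.77 under saline and 47.4% ± 4.42 under fluoxetine, and on the FA diet 50.8% ± 3.42 and 48.5% ± 5.87. *Rps27l*, a p53 target, held 37.5% ± 8.03 of its pair with *Rps27* and *Rpl36al* 32.5% ± 6.12 of its pair with *Rpl36a*, and by coding length 47.0% ± 8.77 and 44.7% ± 7.13. The share of *Rps27l* was lower in both fluoxetine groups (34.6% ± 6.41 and 33.7% ± 10.8 on the breeder and FA diet) than under saline (40.7% ± 6.32 and 40.7% ± 5.99), and the ranges overlapped. On the breeder diet *Rps27l* itself had 45.9 ± 6.78 CPM per kb of exon union under saline and 47.7 ± 5.18 under fluoxetine, and *Rps27* 70.3 ± 24.5 and 93.8 ± 23.7. Without dam 3 the share in FA diet + fluoxetine was 36.6% ± 7.30 (n = 7). *Rpl7l1* held 7.84% ± 1.23, *Rpl3l* 4.79% ± 6.23 and *Rps4l* 1.09% ± 0.370. By coding length these 3 shares were 6.51% ± 1.04, 1.65% ± 2.34 and 0.850% ± 0.289. The logFC for fluoxetine was 0.11 for *Rpl22l1* (SE 0.12, FDR = 0.794), -0.10 for *Rps27l* (SE 0.13, FDR = 0.833), -0.05 for *Rpl36al* (SE 0.15, FDR = 0.946), -0.07 for *Rpl7l1* (SE 0.09, FDR = 0.834), -0.13 for *Rpl3l* (SE 0.60, FDR = 0.963) and 0.03 for *Rps4l* (SE 0.19, FDR = 0.978). Without dam 3 of FA diet + fluoxetine the value of *Rpl36al* was 0.003.

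*Rpl3l*, the form of *Rpl3* found in striated muscle, ran from 0.99 over a median of 2.17 to 7.91 CPM in breeder diet + saline, and from 0.77 to 20.9 CPM with fluoxetine on that diet. It ran from 0.44 over 1.64 to 15.3 CPM in FA diet + saline and from 0 over 1.21 to 11.4 CPM in FA diet + fluoxetine, where the 0 of dam 3 allows up to 0.052 CPM (3 counts). Each group had low dams and 1 or more high ones. The 6 skeletal muscle markers (*Acta1*, *Ckm*, *Myh4*, *Mb*, *Tnnt3* and *Mylpf*) varied with it. On the breeder diet their sum ran from 44.2 to 1684 CPM under saline and from 1.18 to 5569 CPM under fluoxetine, and on the FA diet from 4.53 to 3498 and from 0.664 to 3216 CPM. In the 6 dams with a sum over 1000 CPM, *Rpl3l* had 5.08 to 20.9 CPM (median 9.64), and in the other 25 it had 0 to 6.12 CPM (median 1.45). *Mylpf* had counts in all 31 libraries and *Myh4* in 25. The part of muscle in the *Rpl3l* values was not tested.

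**Figure D5:**
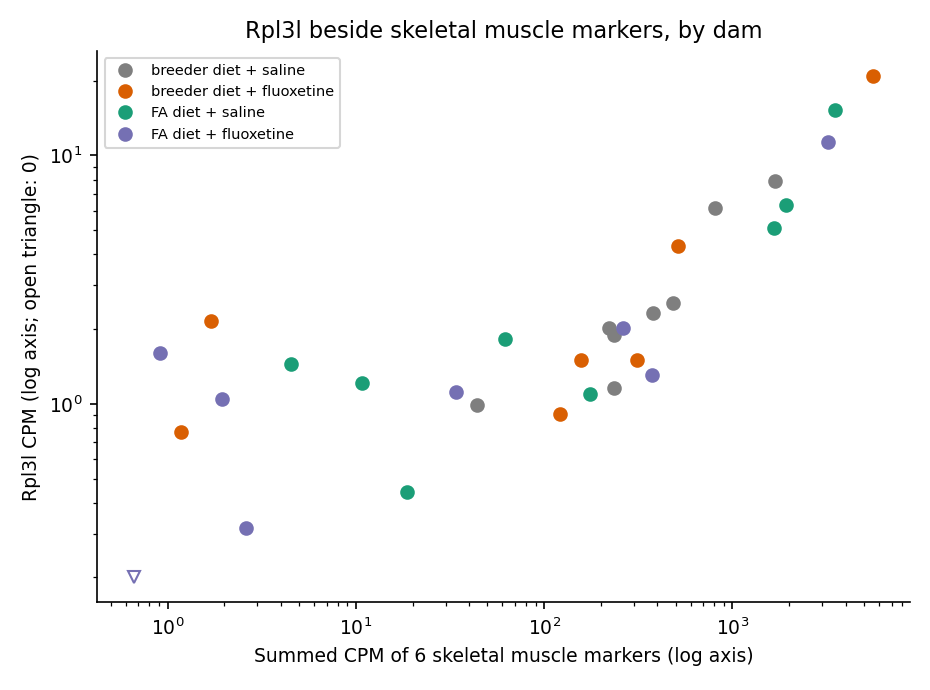
*Rpl3l* CPM of each dam (y axis, log scale) against the summed CPM of 6 skeletal muscle markers (x axis, log scale), colored by group; the open triangle marks the dam with 0 *Rpl3l* counts. The 6 dams with more than 1000 CPM of muscle markers come from all 4 groups and have *Rpl3l* levels of 5.08 to 20.9 CPM.

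Other genes of ribosome production and translation were read in the same fit. None of these 144 genes passed an FDR of 10% for fluoxetine, FA or the interaction, and 16 (11.1%), 7 (4.86%) and 7 (4.86%) had an unadjusted p of 0.05 or below, near the 9.92%, 5.08% and 3.84% of all genes. Among 15 translation factors with TOP mRNAs, such as elongation factors, 9 were above 0 for fluoxetine (median logFC 0.03) and 14 for FA (median 0.11), and *Eef1d*, a subunit of the elongation factor 1 complex, had the smallest p for fluoxetine (logFC 0.25, SE 0.10, FDR = 0.425). Among 34 ribosome biogenesis genes 28 were above 0 for fluoxetine (median 0.07), 22 for FA (median 0.01) and 9 for the interaction (median -0.15). Their smallest p was that of *Nob1*, the nuclease that completes 18S rRNA, with logFC = 0.43 (SE 0.12, FDR = 0.265). Of 15 regulators of mTORC1 and TOP mRNAs, 7 were above 0 for fluoxetine (median -0.05) and 5 for FA (median -0.02), and *Rps6kb2*, an S6 kinase, had logFC = 0.45 (SE 0.16, FDR = 0.406). The 78 mitochondrial ribosomal proteins had medians of 0.03 for fluoxetine (45 above 0), 0.10 for FA (65 above 0) and -0.21 for the interaction (9 above 0), where *Mrpl37* had the smallest p for fluoxetine (0.24, SE 0.08, FDR = 0.360). For the interaction, 3 of the 15 translation factors (median -0.11) and 8 of the 15 regulators (median 0.03) were above 0. *Rack1*, a scaffold protein of the small subunit outside the symbol rule, had logFC = 0.02 for fluoxetine (SE 0.09, FDR = 0.968).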

How the data were processed

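Poly(A) RNA of 31 dams was sequenced in paired ends, 1 library per dam. Per the labels and the study's methods, the authors checked reads with FastQC 0.11.7, trimmed them with Trim Galore 0.4.4, aligned them with HISAT2 (build GRCm39) and assigned them to Ensembl genes with HTSeq in the mode intersection-nonempty. The deposited values are raw counts, and the annotation release and strand option are not given in the sources used here. Reads shared with pseudogenes are lost or split by such counting.

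Symbols came from GENCODE vM39 (667 gene IDs had none). In R 4.3.3 with edgeR 4.0.16, filterByExpr removed 41017 genes, libraries were TMM-normalized, and fluoxetine, FA and their interaction were contrasts of a fit with the 4 groups and robust dispersions, tested by quasi-likelihood with Benjamini-Hochberg adjustment over all 14362 genes. With a common dispersion of 0.169, precision was set by the dams. Libraries of a group differed by more than counting error (chi-square per degree of freedom of 14.4 or above). Log2 CPM carry a prior count of 2. Promoter windows are RefSeq's (GRCm38.p6), placed on GRCm39 by exact match.

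Members and lists were chosen with earlier results of these data known. Levels are given for the 3 markers, *Rplp1*, *Rplp2*, *Rpsa*, *Fau*, paralog pairs and the extremes of level and spread, and tests for the markers, the paralogs and the 3 members of smallest p. Of other lists, the gene of smallest p for fluoxetine is named, except where 1 item is not reported here; *Rack1* was then named in its place. Alternatives were RLE and upper quartile normalization, 20 abundant genes left out, 2 filters, the likelihood ratio test, DESeq2 1.42.0, limma 3.58.1 voom with quality weights, no robust estimation, a replicate block, added pseudogene counts, effects within 1 level of the other factor and each dam left out. Scaling by library totals for the fits, coding length (levels and paralog shares) and the repeats for other lists were chosen after seeing the data. The tests were tested on simulated data.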

Additional observations from a re-analysis of the deposited data

Results flagged for a closer look

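In 144 combinations of a value and a group, the highest or lowest dam stood far from its neighbors (Dixon's 95% limit) in 10, and chance gives about 5%. The share of counts in the members was highest in dam 13 of breeder diet + fluoxetine (2.75%, next 1.93%), in dam 3 of FA diet + saline (2.09%, next 1.64%) and in dam 3 of FA diet + fluoxetine (3.60%, next 2.15%), and none of these 3 dams stood out in summed normalized CPM by the same measure. *Rpl3l* was highest in dam 5 of breeder diet + fluoxetine (20.9 CPM, next 4.30), dam 4 of FA diet + saline (15.3 CPM, next 6.30) and dam 10 of FA diet + fluoxetine (11.4 CPM, next 2.03). Each of these 3 dams also had the highest skeletal muscle marker sum of its group, with 5569, 3498 and 3216 CPM.

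*Rps6* was lowest in dam 9 of breeder diet + fluoxetine (215 CPM, next 269), and *Rps4l* was highest in the same dam (3.09 CPM, next 1.86). That dam had the highest summed CPM of its group (21927). *Rpl22l1* was highest in dam 1 of FA diet + saline (65.3 CPM, next 53.5). *Rps27l* was lowest in dam 3 of FA diet + fluoxetine (19.9 CPM, next 71.2), and its logFC for fluoxetine was -0.04 without that dam and -0.10 with it.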

How the results depend on the processing

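No member passed an FDR of 10% for FA or the interaction under any of the 12 other settings or with any of the 31 dams left out in turn (0 to 0 members). For fluoxetine the same held (0 to 0 members) except for limma voom with quality weights, which called 1 member, *Rps13* (logFC 0.47, FDR 0.086; its FDR ranged up to 0.636 over the alternatives). All genes called for fluoxetine were 3 in the quasi-likelihood test, 45 in the likelihood ratio test, 70 in DESeq2, 52 in limma, 1 without a filter and 0 with library totals alone or a replicate block. Members at an unadjusted p of 0.05 or below were 12 for fluoxetine (59 with library totals alone), 1 for FA (16 in limma, 3 in DESeq2 or with pseudogene counts added, 2 with upper quartile scaling or the CPM filter, 0 with library totals alone) and 0 for the interaction (11 in limma). Of all genes, 9.92%, 5.08% and 3.84% had such a p in the main fit, and their shares in the other settings are not given. With library totals alone 85.0% of all genes were above 0 for fluoxetine. With each dam left out the median logFC of the members ranged from 0.062 to 0.124 for fluoxetine, from 0.072 to 0.126 for FA and from -0.290 to -0.156 for the interaction. With library totals alone the interaction median was 0.10 (-0.27 relative to all genes with TMM, -0.37 here), and the summed level of FA diet + saline relative to breeder diet + saline was 0.995 in place of 1.15. Coding length in place of exon union length moved the paralog shares of *Rpl3l* (1.65%), *Rps4l* (0.850%), *Rpl7l1* (6.51%), *Rpl22l1* (33.6%), *Rpl36al* (44.7%) and *Rps27l* (47.0%).

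The same scaling reversed *Rplp0* (0.16), *Rps6* (0.14), *Rpl3* (0.25), *Rpl7l1* (0.18), *Rpl36al* (0.10) and *Rps27l* (0.037) for fluoxetine, and *Rps26* (0.01), *Rpl6* (0.058) and *Rpl7l1* (0.10) for the interaction. Leaving out a dam reversed 4 genes for fluoxetine, with ranges of -0.061 to 0.00385 (*Rpl3*), -0.79 to 0.23 (*Rpl3l*), -0.13 to 0.013 (*Rpl36al*) and -0.087 to 0.071 (*Rps4l*). limma reversed *Rps4l* (-0.13). Causes were not tested.

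The labels do not say that an animal number is shared between groups. Over 28 pairs with the same number in different groups the mean correlation of deviations was 0.07 and 12 (42.9%) exceeded 0.1, against -0.005 and 74 (22.3%) of 332 pairs with different numbers. Pairing was taken to need all pairs above 0.1, so the numbers were not used as pairs. This strict rule cannot tell a weaker link between same-numbered dams from none, and such a link was not tested. A replicate block on the number gave no called member, and median logFC values of -0.004 (fluoxetine, 41 of 84 above 0), 0.18 (FA) and -0.11 (interaction), 1, 3 and 1 members at an unadjusted p of 0.05 or below, with *Rpl3l* at 0.14 and *Rps4l* at -0.15. *Rps4l* (1259 counts over 31 libraries) and *Rpl3l* (2395, with 0 in 1 library) were the rarest members, so counting error adds most to theirs.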
